A study of Mus musculus with 4 samples.

Results

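Gdf11 and its close relative myostatin (Mstn) are secreted ligands of the TGF-beta superfamily, and the genes described here encode these ligands and the proteins that process, bind, receive and transmit them. The genes were listed by their role in the pathway, with earlier results of these data known, and their probe sets were then taken by annotation alone: each probe set (a group of short array probes that reports one transcript) that the platform annotation assigned to Gdf11, Mstn, Acvr2a, Acvr2b, Tgfbr1, Pcsk5, Wfikkn1, Fst, Smad2 or Smad3 alone. This gave 22 of the 45037 probe sets tested, covering 9 of the 10 listed genes. Mstn had no probe set under this rule and was not analysed here, and 1 probe set shared by Orc4 and Acvr2a was left out.

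Expression was measured in 2 Gcnf-/- and 2 wt mouse embryos at embryonic day 9.0 (E9.0), 1 Affymetrix whole-genome array per embryo. Gcnf is the former name of Nr6a1, an orphan nuclear receptor that acts mainly as a transcriptional repressor, and Gcnf-/- embryos are homozygous for its mutation in all of their cells and die before birth. The question here was how transcripts of the Gdf11 pathway stand in embryos without the receptor. The study's methods describe RNA taken from each whole embryo within a window that extends to E9.5, but name no litter or somite count for the single embryos. The paper also states that embryos lacking Nr6a1 develop more slowly once somites have begun to form and do not complete turning. The part of developmental stage in the values below was not tested.

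Gdf11 is made as a precursor that the proprotein convertase Pcsk5 cleaves. The mature dimer binds the type II receptors Acvr2a and Acvr2b, which recruit type I receptors such as Tgfbr1, and these phosphorylate Smad2 and Smad3. In the mouse tailbud this signal sets the time at which trunk formation gives way to tail formation, whereas myostatin limits the growth of skeletal muscle. Follistatin (Fst) and Wfikkn1 are secreted antagonists that bind these ligands.

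Of the members, Wfikkn1 was lower in Gcnf-/- embryos, at 2.95-fold below wt, and it was the 1 member probe set of 22 that passed the threshold. Fst lay higher, by 1.48-fold, and 2 of the 5 Pcsk5 probe sets lay lower by 1.29-fold and 1.33-fold, all without passing. Gdf11 itself, its type II receptors, Smad2 and Smad3 stood between -0.29 and 0.08 on the log2 scale in every probe set.

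The start regions of Wfikkn1, the member that passed, and of Gdf11, the ligand measured, are printed to show how unlike they are. Each spans 250 bases before to 50 after the annotated start, was taken from RefSeq (build GRCm38.p6), and has its CpG dinucleotides in capitals. Wfikkn1 lies at chr17:25880809-25881108 on the minus strand and Gdf11 at chr10:128891669-128891968 on the minus strand.
Wfikkn1: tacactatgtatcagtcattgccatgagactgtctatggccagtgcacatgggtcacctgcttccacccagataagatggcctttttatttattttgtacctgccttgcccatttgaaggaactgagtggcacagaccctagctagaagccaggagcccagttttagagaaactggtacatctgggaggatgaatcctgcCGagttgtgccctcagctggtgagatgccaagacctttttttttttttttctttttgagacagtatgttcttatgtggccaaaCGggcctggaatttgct
Gdf11: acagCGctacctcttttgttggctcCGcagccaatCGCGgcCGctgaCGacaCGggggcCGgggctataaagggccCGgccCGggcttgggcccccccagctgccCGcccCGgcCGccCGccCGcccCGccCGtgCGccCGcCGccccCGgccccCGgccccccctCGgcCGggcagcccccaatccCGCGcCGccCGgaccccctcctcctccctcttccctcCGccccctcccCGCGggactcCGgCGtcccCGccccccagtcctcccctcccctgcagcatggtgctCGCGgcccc

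The Wfikkn1 window held 2 CpG and was 46.0% G and C, whereas the Gdf11 window held 36 CpG and was 80.7% G and C. Over the 32851 start regions of the same length the median was 7 CpG, which places Wfikkn1 at the 18.7th and Gdf11 at the 94.1th percentile. RefSeq start regions were matched for 8 of the 10 genes, as 9 windows with 2 for Tgfbr1, and ranged from 2 CpG in Wfikkn1 to 54 in Acvr2a. The Nr6a1 protein is known to bind the core motif AGGTCA as a direct repeat without a spacer, or extended as TCAAGGTCA. On either strand, 0 of the 9 windows held AGGTCA, which is part of both longer forms, while 16.3% of all start regions held AGGTCA and 0.423% held TCAAGGTCA. CAGACA, a sequence that Smad3 can bind, stood in 2 of the 9 windows (Mstn and 1 of Tgfbr1) and in 21.0% of all. These matches describe the letters of a short window and say nothing of binding.

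The targeted gene was not lower on these arrays. The brightest of 5 Nr6a1 probe sets read 11.87 and 12.14 in Gcnf-/- embryos, against 11.53 and 11.80 in wt embryos. The dimmest, at the 8.9th percentile of signal, read 4.03 and 4.03 in Gcnf-/- embryos, against 4.06 and 3.89 in wt embryos, with overlapping groups. By their means 5 of 5 probe sets stood above wt, with 0 called by limma. Which of them lie in the part the mutation removes was not analysed here, so they do not check the genotype labels. All signals are log2 values made by the robust multi-array average (RMA), and differences are Gcnf-/- minus wt. Arrays of the same genotype correlated across probe sets at 0.9975 (Gcnf-/-) and 0.9973 (wt), against 0.9931 to 0.9952 between genotypes. By Xist and the Y-linked Eif2s3y and Kdm5d, wt replicate 1 was female and the other 3 embryos were male. The poly-A spike probe sets averaged 9.66 and 9.59 in Gcnf-/- embryos and 8.96 and 9.61 in wt embryos, and the 18S ribosomal RNA probe sets 10.83 and 10.74 in Gcnf-/- and 9.45 and 9.99 in wt. The part of embryo sex, spike signal and ribosomal signal in the values below was not tested. Values without wt replicate 1 are given below for some results only. Without that array Foxh1 went from 0.93 to 0.73, Skil from -0.89 to -0.73, Pmepa1 from 0.69 to 0.45 and Isl1 from 0.50 to 0.35. Tgfbi went from 0.46 to 0.51 and Hoxd11 from 0.62 to 0.67, whereas without Gcnf-/- replicate 1 these 2 genes stood at 0.21 and 0.40. Defining genes of neural tube (Sox2, Pax6), somites (Meox1), heart (Myl7), endoderm (Foxa2), vessels (Cdh5) and primitive red cells (Hbb-bh1) all read above the median signal of the array, as a whole embryo should. Yolk sac endoderm genes were also bright, and 8 of 10 of them lay lower in Gcnf-/- embryos (median -0.20, or -0.13 without wt replicate 1, summed log2 signal 16.84 and 16.66 in Gcnf-/- and 16.98 and 16.84 in wt), while the 2 measured trophoblast and decidua genes, Tpbpa and Prl8a2, stood at or below 5.73 on each array. Primitive red cell genes lay higher in 4 of 4 measured, with 0 called by limma (median 0.36, or 0.25 without wt replicate 1). None of the 4 overlapped, beside 50.8% of all probe sets, and 2 were at an unadjusted p under 0.05, beside 20.1%. They were led by the haem synthesis gene Alas2 at 0.98 ± 0.18 and the erythroid factor Klf1 at 0.57 ± 0.13 (SE, limma adjusted p = 0.0848 and 0.110). Their summed log2 signals were 16.20 and 16.17 in Gcnf-/- and 16.00 and 16.07 in wt. The part of these tissues in the values below was not tested. In RNA from whole embryos, fewer cells of a type and less RNA per cell cannot be told apart.

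A probe set was called at a limma adjusted p of 0.05 or lower with a change of at least 2-fold. Over all probe sets 0.382% were called, 0.0777% of them lower and called, and 0.975% passed the adjusted p whatever the fold, so that 1 of 22 members is a count resting on a single gene. Of the 22 member probe sets, 15 lay lower and 7 higher in Gcnf-/- embryos with a median of -0.07, beside 52.9% lower and a median of -0.01 over all probe sets. The genotypes did not overlap in 13 of the 22, which 50.8% of all probe sets also showed. At an unadjusted p under 0.05 there were 7 of 22 members and 20.1% of all probe sets. With 2 embryos per genotype an exact permutation test of a single value cannot give a two-sided p below 0.333, so the calls rest on the spread that limma shares across probe sets.

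**Figure D1:**
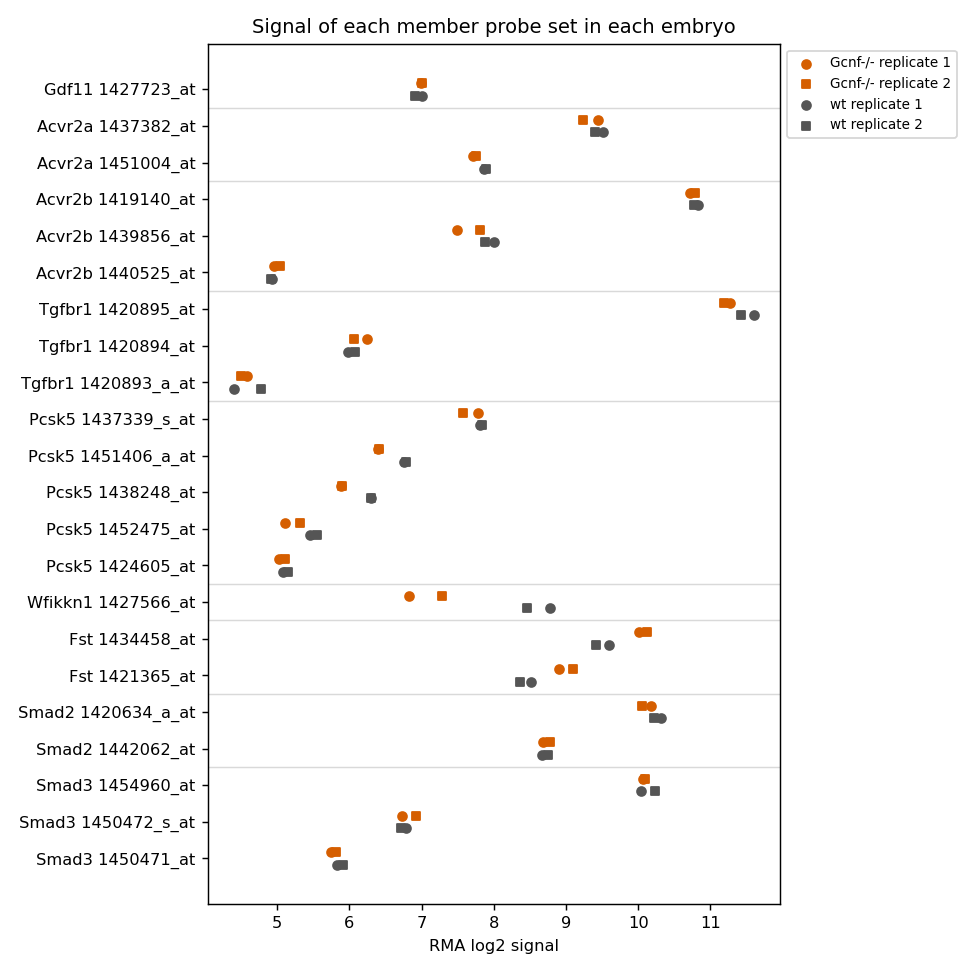
RMA log2 signal (horizontal axis) of each of the 22 member probe sets (rows, named by gene and probe set) in each embryo, with Gcnf-/- in orange above wt in grey and circles and squares for replicates 1 and 2. Wfikkn1 is the row in which the genotypes stand farthest apart, at 6.83 and 7.28 in Gcnf-/- and 8.77 and 8.45 in wt.

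The ligand Gdf11 was reported by 1 probe set. Its signal was 6.99 and 7.01 in Gcnf-/- embryos, against 7.00 and 6.90 in wt embryos. The groups overlapped, since wt replicate 1 lay between the Gcnf-/- embryos. The difference was 0.05 ± 0.07 (limma's moderated SE, n = 2 per genotype, adjusted p = 0.780), with a 95% interval from -0.14 to 0.23, and 75.9% of the 18193 genes measured had a larger absolute change. The mean signal of this probe set stood at the 51.9th percentile of all probe sets, close to the middle of the array, where unspecific hybridisation can understate a change.

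Acvr2b, a type II receptor for both ligands, had 3 probe sets that did not pass. The brightest read 10.71 and 10.79 in Gcnf-/- embryos, against 10.83 and 10.78 in wt embryos. Its groups overlapped, with a difference of -0.05 ± 0.07 (SE) and an interval from -0.24 to 0.13. The next read 7.48 and 7.81 in Gcnf-/- embryos, against 8.00 and 7.87 in wt embryos, with the lowest value in Gcnf-/- replicate 1 and a difference of -0.29 ± 0.13 (SE, adjusted p = 0.297). Without Gcnf-/- replicate 1 that difference was -0.12. The dimmest, at the 21.8th percentile of signal, differed by 0.07.

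The related type II receptor Acvr2a was read by 2 probe sets. The brighter gave 9.44 and 9.24 in Gcnf-/- embryos and 9.51 and 9.41 in wt embryos, which overlapped, and differed by -0.11 ± 0.10 (SE, adjusted p = 0.576). The other gave 7.71 and 7.75 in Gcnf-/- embryos and 7.87 and 7.89 in wt embryos. Here both Gcnf-/- values lay below both wt values, by a gap of 0.12 between the nearest, and the difference was -0.15 ± 0.07 (SE, adjusted p = 0.301).

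Tgfbr1, a type I receptor that phosphorylates Smad2 and Smad3, was the receptor among the members with a difference whose interval left out 0. Its brightest probe set read 11.28 and 11.19 in Gcnf-/- embryos, against 11.61 and 11.43 in wt embryos. Both Gcnf-/- embryos were lower than both wt embryos, by -0.28 ± 0.09 on the log2 scale (SE, 95% interval -0.52 to -0.05, adjusted p = 0.187). The other probe sets were dim, at the 38.8th and 16.4th percentiles, and stood at 0.13 and -0.04 with overlapping groups. Of all genes, 16.1% had a larger absolute change than the brightest Tgfbr1 probe set. Without wt replicate 1 that probe set stood at -0.19, and the mean of the Tgfbr1 probe sets over all arrays at -0.07. An interval that leaves out 0 equals an unadjusted p under 0.05 in limma, which 20.1% of all probe sets showed.

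Pcsk5, the convertase that cleaves the Gdf11 precursor, had 5 probe sets, and each lay lower in Gcnf-/- embryos. The brightest read 7.78 and 7.58 in Gcnf-/- embryos, against 7.80 and 7.83 in wt embryos, a difference of -0.14 ± 0.09 (SE, adjusted p = 0.463). The second read 6.40 and 6.41 in Gcnf-/- embryos, against 6.75 and 6.78 in wt embryos, and differed by -0.36 ± 0.07 (SE, adjusted p = 0.0848). In the third the values were 5.89 and 5.90 in Gcnf-/- embryos, against 6.30 and 6.29 in wt embryos, with a difference of -0.41 ± 0.07 (SE, 95% interval -0.58 to -0.24, adjusted p = 0.0707). In these 2 probe sets the genotypes did not overlap, with 0.34 and 0.40 between the nearest values, and the replicates lay close together. Both read below the median signal, at percentiles 46.3 and 38.8. The genotypes also did not overlap in the brightest probe set and in the one at -0.29, and 50.8% of all probe sets showed the same. The remaining probe sets stood at -0.29 and -0.05 in the lower part of the signal range. No Pcsk5 probe set reached the adjusted p threshold, with the lowest 0.0552 under an intensity trend. The probe sets report 1 gene and are not independent, and which exons they match was not analysed here.

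**Figure D2:**
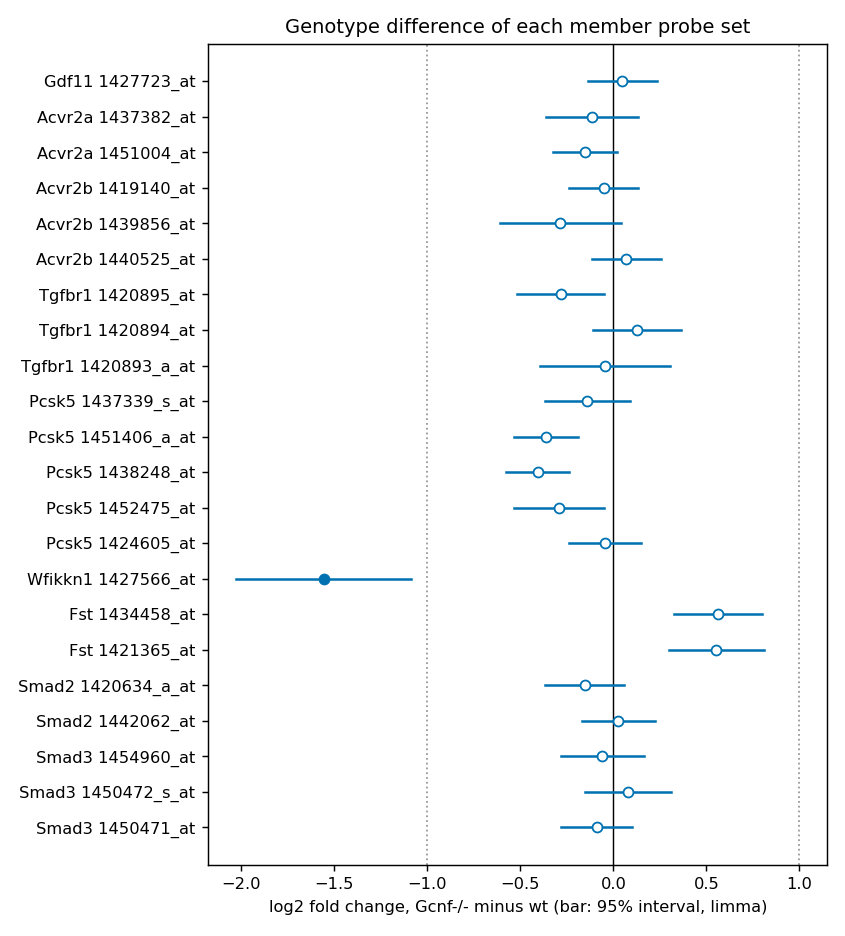
Log2 fold change (horizontal axis, Gcnf-/- minus wt) of each member probe set (rows), with limma's 95% interval as bars, n = 2 embryos per genotype, filled points for called probe sets and dotted lines at 2-fold. Wfikkn1 at -1.56 is filled, the 2 Fst probe sets lie at 0.56 and 0.55, and the interval of Gdf11 runs from -0.14 to 0.23.

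Among the antagonists, Wfikkn1 and Fst lay on opposite sides of wt. Wfikkn1 encodes a secreted protein with several protease-inhibitor-like domains that binds Gdf11 and myostatin. Its probe set read 6.83 and 7.28 in Gcnf-/- embryos, against 8.77 and 8.45 in wt embryos. Both Gcnf-/- embryos were lower than both wt embryos, with 1.17 between the nearest values. The mean was 7.05 ± 0.32 in Gcnf-/- embryos and 8.61 ± 0.23 in wt embryos (SD, n = 2 each). Wfikkn1 fell by 1.56 ± 0.18 on the log2 scale (SE, 95% interval -2.03 to -1.09, limma adjusted p = 0.0438). By brightest probe set, where 0.544% of genes were called, it was the 15th lowest of 18193 genes.

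The size of the Wfikkn1 difference held with each array left out, but its call did not. It was -1.33 without Gcnf-/- replicate 1 (adjusted p = 0.229), -1.78 without Gcnf-/- replicate 2 (adjusted p = 0.174), -1.40 without wt replicate 1, the female embryo (adjusted p = 0.291), and -1.72 without wt replicate 2 (adjusted p = 0.144). The gene has 1 probe set here, so no other probe set could be set beside it.

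The 5 genes whose 4 values ran closest to those of Wfikkn1, by Euclidean distance after subtracting each gene's mean over the 4 arrays, were Csn3, Fxyd2, Tmed6, Dmrta1 and Ccl6, at distances from 0.15 to 0.43 among 18192 genes. Csn3, a milk casein gene, read 6.08 and 6.37 in Gcnf-/- embryos, against 7.89 and 7.70 in wt embryos. Fxyd2, which encodes a sodium pump regulator, read 9.75 and 10.03 in Gcnf-/- embryos, against 11.37 and 11.06 in wt embryos. In both, as in Wfikkn1, Gcnf-/- replicate 1 was the lowest embryo and wt replicate 1 the highest. Likeness over 4 arrays is a description and was not tested.

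Wfikkn1 is known from somites and their derivatives, and markers of dermomyotome and muscle are therefore given beside it. Of the 12 listed, all measured, 9 lay lower in Gcnf-/- embryos, with a median of -0.15 and summed log2 signals of 11.58 and 11.50 in Gcnf-/- and 11.92 and 11.79 in wt. Dmrt2, a regulator of the dermomyotome, was called lower, at 5.36 and 5.18 in Gcnf-/- embryos, against 6.49 and 6.30 in wt embryos. The somite genes Meox1 (-0.62 ± 0.13, SE), Meox2 (-1.05 ± 0.22) and Tcf15 (-0.37 ± 0.07) also lay lower without passing (adjusted p = 0.105, 0.103 and 0.0834). The muscle-determining genes did not follow, with Myf5 at 0.10, Myod1 at 0.02 and Myog at -0.02, all of them below the median signal of the array. Pax3, expressed in dermomyotome and dorsal neural tube, stood at 0.22, and Pax7, below the median signal, at -0.48 ± 0.15 (SE, limma adjusted p = 0.173). Of the 12 markers, 8 read below the median signal. Dmrt2 (34.9th percentile) and Meox2 (31.0th) are among them and were dimmer than Myog (45.1th), whereas Meox1 and Tcf15 read above it. Without wt replicate 1 the median of the list was -0.10. The part of somite-derived cells in the Wfikkn1 value was not tested.

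**Figure D3:**
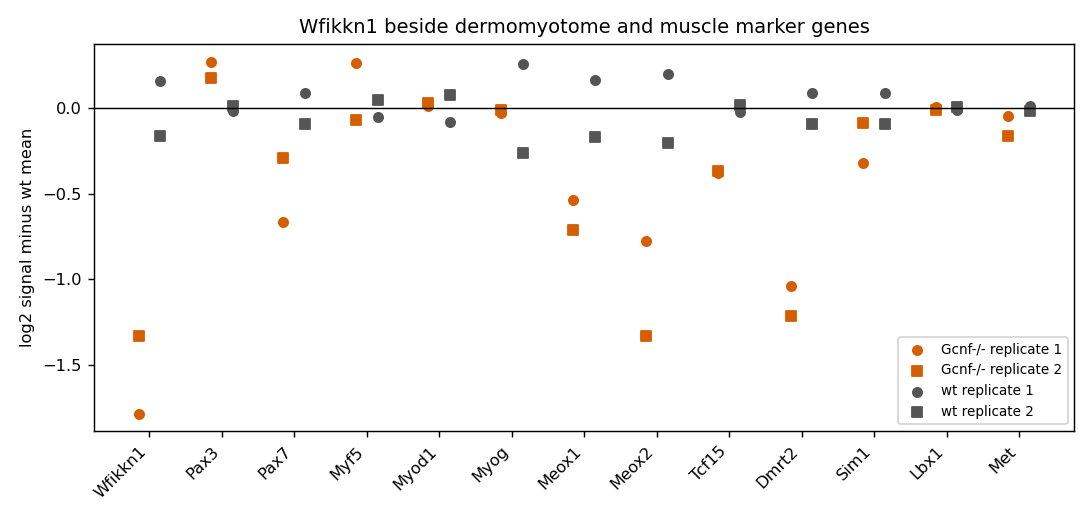
Log2 signal minus the wt mean (vertical axis) of Wfikkn1 and the 12 dermomyotome and muscle markers (horizontal axis) in each embryo, Gcnf-/- in orange to the left of wt in grey, circles and squares for replicates 1 and 2. For Wfikkn1, Dmrt2, Meox2, Meox1, Pax7, Tcf15 and Met both Gcnf-/- embryos lie below both wt embryos. The Gcnf-/- values of Myod1, Myog and Lbx1 lie near 0.

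Follistatin, which binds activins, Gdf11 and myostatin and blocks their receptor sites, was read by 2 probe sets that agreed. The brighter gave 10.01 and 10.12 in Gcnf-/- embryos, against 9.59 and 9.41 in wt embryos. The other gave 8.90 and 9.09 in Gcnf-/- embryos, against 8.51 and 8.37 in wt embryos. In both, each Gcnf-/- embryo lay above each wt embryo, by at least 0.38. The differences were 0.56 ± 0.09 (SE, 95% interval 0.32 to 0.80, limma adjusted p = 0.0729) and 0.55 ± 0.10 (SE, adjusted p = 0.0833), short of both the 2-fold and the adjusted p threshold. Among probe sets at or above the median signal alone, the limma adjusted p were 0.0306 and 0.0353, and with an intensity trend 0.0203 and 0.0295, still under 2-fold. By the mean of the 2 probe sets it was 0.0433. With a replicate block they were 0.196 and 0.202. Repeated quantile normalisation, median centring and robust eBayes also left both above 0.05. The difference of the brighter was 0.65 without wt replicate 1 and 0.47 without wt replicate 2, and 3.95% of genes had a larger absolute change.

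The receptor-activated Smads, which carry the signal to the nucleus, did not pass. The brighter Smad2 probe set read 10.18 and 10.05 in Gcnf-/- embryos, against 10.32 and 10.21 in wt embryos. Its values did not overlap, but the nearest were 0.04 apart, and the difference was -0.15 ± 0.08 (SE, adjusted p = 0.382). The other Smad2 probe set gave 8.69 and 8.78 in Gcnf-/- embryos and 8.67 and 8.75 in wt embryos, a difference of 0.03 with overlapping groups. The brightest Smad3 probe set gave 10.06 and 10.09 in Gcnf-/- embryos and 10.04 and 10.23 in wt embryos. It differed by -0.06 ± 0.09 (SE, 95% interval -0.28 to 0.16) and the other Smad3 probe sets by 0.08 and -0.09. For each of these probe sets the interval left out a 2-fold change in either direction.

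The other genes of the pathway were described by 1 probe set each, the brightest. Of 36 listed genes 35 were measured (Gdf1 had no probe set of its own), and 13 lay lower and 22 higher. The median of these 35 was 0.07 (0.026 without Gcnf-/- replicate 2), beside -0.01 over all genes. By limma 0 were called, with 10 of the 35 at an unadjusted p under 0.05, beside 20.1% of all probe sets. At the adjusted p alone, 1 passed as higher and 0 as lower. That gene was Bambi, a pseudoreceptor that dampens TGF-beta and BMP signals, at 11.30 and 11.29 in Gcnf-/- embryos, against 10.40 and 10.53 in wt embryos. The genotypes were far apart relative to their replicates, with a difference of 0.83 ± 0.08 (SE, adjusted p = 0.0311), or 1.78-fold. Without wt replicate 1 the difference was 0.77, and with any array left out its adjusted p was from 0.119 to 0.250.

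By role, 4 of 7 measured ligands lay lower and 3 higher, between -0.37 and 0.52. Outside the members, the receptors and co-receptors lay higher in 6 of 6 genes (median 0.26) and the antagonists in 7 of 7 (median 0.11), where 52.8% of all genes lay lower. The genotypes did not overlap in 4 of these 6 and 2 of these 7 genes, which 50.8% of all probe sets also showed. The smallest differences were 0.02 among the receptors and 0.03 among the antagonists. The member receptors Acvr2a, Acvr2b and Tgfbr1 lay lower in 3 of 3 (median -0.11). Acvr1b, the type I receptor that Gdf11 can use beside Tgfbr1, read 11.09 and 11.27 in Gcnf-/- embryos, against 10.41 and 10.52 in wt embryos. Its difference of 0.72 ± 0.09 (SE, adjusted p = 0.0507), or 1.64-fold, fell short of 2-fold, and its other, dim probe set stood at 0.12. Tgfbr1 at -0.28 and Acvr1b at 0.72 lay on opposite sides of wt, a difference between the 2 receptors that was not tested. The processing proteases had a median of -0.10 over 5 genes, and Furin, a convertase of many precursors, stood at 0.04. Wfikkn2, the paralogue of Wfikkn1, read 6.32 and 6.43 in Gcnf-/- embryos, against 6.34 and 6.24 in wt embryos, overlapping and different by 0.09 ± 0.08 (SE, adjusted p = 0.604).

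Of the Smad partners, Skil and Foxh1 stood apart in opposite directions. Skil, which encodes the Smad repressor SnoN, read 9.50 and 9.44 in Gcnf-/- embryos, against 10.51 and 10.20 in wt embryos. The difference was -0.89 ± 0.12 (SE, adjusted p = 0.0526) in this probe set and -0.29 in a dimmer one. Foxh1, a DNA-binding partner of Smad2 in early embryos, read 9.31 and 9.63 in Gcnf-/- embryos, against 8.34 and 8.74 in wt embryos. It differed by 0.93 ± 0.17 (SE, adjusted p = 0.0848), and its other probe sets by 0.65 and 1.22. Smad4, the common partner, differed by 0.10 and the inhibitory Smad7 by 0.07.

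**Figure D4:**
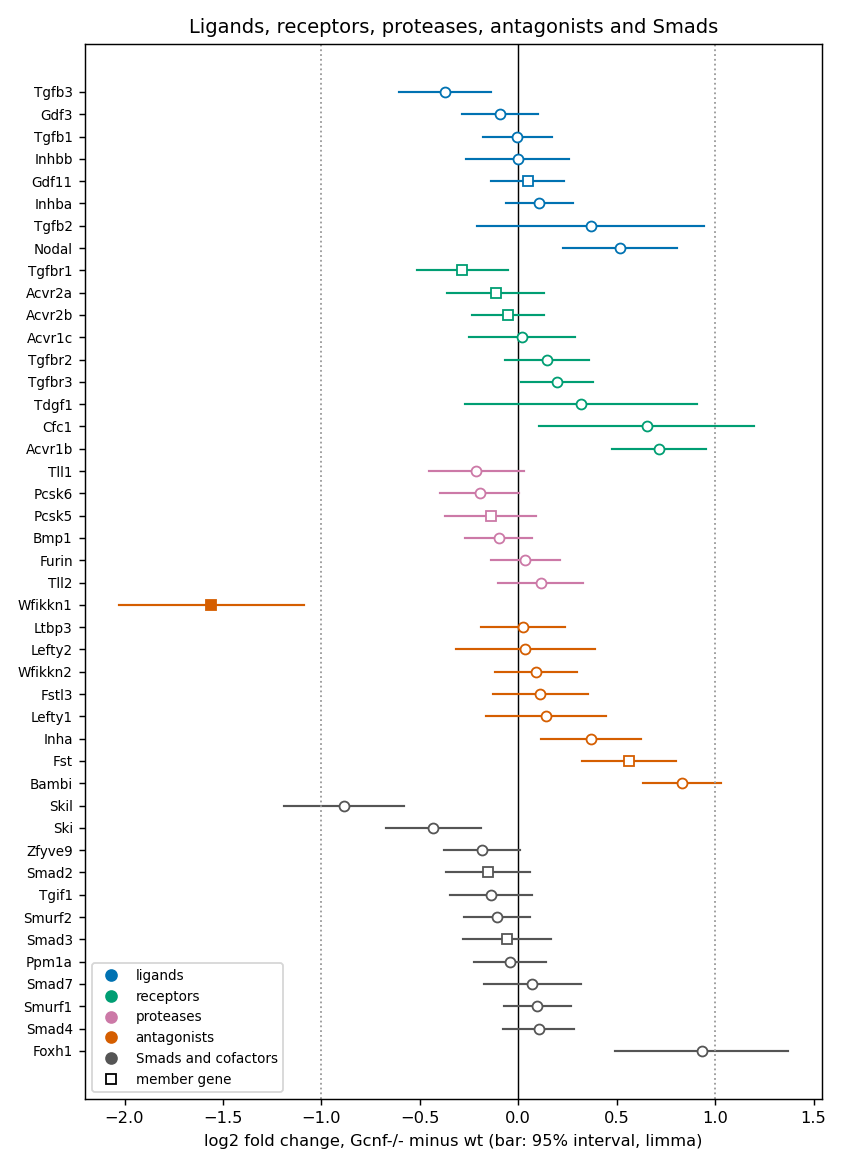
Log2 fold change (horizontal axis, Gcnf-/- minus wt) with limma's 95% interval of the 9 member genes (squares) and 35 other pathway genes (circles), 1 probe set each, n = 2 embryos per genotype; colours are roles, filled symbols were called and dotted lines mark 2-fold. Wfikkn1 is the filled symbol, and Bambi (0.83), Acvr1b (0.72), Foxh1 (0.93) and Skil (-0.89) lie short of 2-fold.

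Transcripts known to respond to Smad2 and Smad3 signalling did not move together. Of 8 listed 6 were measured, 4 of them at an unadjusted p under 0.05 in limma, beside 20.1% of all probe sets. By direction 2 lay lower and 4 higher, with a median of 0.05 and 0 called by limma. The sign of this median was not stable, at -0.0094 without wt replicate 1, 0.12 without wt replicate 2, -0.23 among brighter probe sets, 0.13 by the mean of probe sets and 0.20 by the probe set of lowest p. Of these, Skil, Smad7 and Lefty2 were also counted in the pathway list. Pmepa1, a feedback inhibitor of TGF-beta signalling, read 6.88 and 6.66 in Gcnf-/- embryos, against 5.84 and 6.32 in wt embryos (0.69 ± 0.17, SE, adjusted p = 0.129). Ccn2, an extracellular matrix protein, read 8.87 and 8.50 in Gcnf-/- embryos, against 9.34 and 9.08 in wt embryos (-0.52 ± 0.16, SE, adjusted p = 0.166). Tgfbi stood at 0.46 ± 0.17 (SE, adjusted p = 0.228). In these brightest probe sets the groups did not overlap, as in 50.8% of all probe sets, and their directions differed. The other Pmepa1 probe sets stood at 0.56 and 0.14 and the other Tgfbi probe sets at 0.38, 0.30 and 0.29. Of these, the groups overlapped at 0.14 and 0.30.

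Genes tied by earlier work to the trunk-to-tail transition were read in the same fit. Of 10 listed 9 were measured, 3 lower and 6 higher with a median of 0.37. At an unadjusted p under 0.05 in limma there were 7 of 9, beside 20.1% of all probe sets. The 1 gene called was Pou5f1, the pluripotency factor that is a known Nr6a1 target. Pou5f1 read 10.66 and 11.31 in Gcnf-/- embryos, against 5.23 and 5.99 in wt embryos, and rose by 5.38 ± 0.32 (SE, adjusted p = 0.0136). With 1 array left out its adjusted p was 0.0630 to 0.153, and the median of the list was 0.22 without Gcnf-/- replicate 2, 0.23 without wt replicate 1 and at most 0.50. Hoxc10 read 7.01 and 6.26 in Gcnf-/- embryos, against 9.07 and 8.53 in wt embryos, at -2.16 ± 0.30 (SE, adjusted p = 0.0541). Hoxd11, a posterior Hox gene, stood at 0.62 ± 0.15 and Isl1, a gene of hindlimb and cloacal mesoderm, at 0.50 ± 0.13 (SE, adjusted p = 0.125 and 0.134). Tbx4 stood at 1.00 ± 0.30 and Lin28a at -0.26 ± 0.09 (SE, limma adjusted p = 0.169 and 0.213). The Tbx4 values were 9.12 and 9.40 in Gcnf-/- embryos, against 7.80 in wt replicate 1 and 8.71 in wt replicate 2. Cyp26a1, which breaks down retinoic acid in the tailbud, stood at 0.37 ± 0.14 (SE, adjusted p = 0.240). The list also holds Nr6a1 itself. Tailbud markers were read as well, with 8 of 9 higher in Gcnf-/- embryos, a median of 0.11 and 0 called by limma. At an unadjusted p under 0.05 there were 2 of 9, beside 20.1% of all probe sets. Their summed log2 signals were 11.80 and 11.97 in Gcnf-/- and 11.59 and 11.75 in wt. The part of the amount of tailbud tissue in these values was not tested.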

How the data were processed

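RNA from whole E9.0 embryos (2 Gcnf-/-, 2 wt) was hybridised to Affymetrix arrays. The authors deposited log2 signals made with RMA, which corrects background, quantile-normalises arrays and summarises each probe set. The RMA version and genome build were not given in the sources used here. This normalisation removes shifts shared by most transcripts. The number of arrays limits the precision. Of 45101 probe sets 64 controls were left out. The platform annotation gave 77.6% of the others 1 symbol, and 99.4% of these matched RefSeq (GRCm38.p6) by Entrez ID. A gene was represented by its brightest probe set. Genotypes were compared in limma 3.58.1 (R 4.3.3) with lmFit and eBayes, genotype alone as term, Benjamini-Hochberg adjustment over 45037 probe sets and the study's thresholds (adjusted p of 0.05, 2-fold). The fitting script was tested on simulated data. Members, lists and the rule for named genes (all members; per other list the called genes and the 4 of smallest p; the 5 closest to Wfikkn1) were chosen with earlier results of these data known. Wfikkn2, Furin, Smad4, Smad7, Tbx4, Lin28a, Cyp26a1 and single markers were named after their values were seen. Replicates were taken as separate embryos. Alternatives were a replicate block, each array left out, an intensity trend, robust eBayes, median centring, a second quantile normalisation, only brighter probe sets, no fold threshold, and the mean or lowest-p probe set of a gene.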

Additional observations from a re-analysis of the deposited data

How the results depend on the processing

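With 1 array left out in turn, 0 to 9 probe sets of the whole table passed in limma (172 with all arrays), 0 of the member probe sets and 0 of the transition genes, from fewer samples by construction; 5 to 7 member probe sets were at an unadjusted p under 0.05. With the replicate number as a block 0 probe sets passed in all (8358 at an unadjusted p under 0.05), 0 of the members (7) and 0 of the transition genes, and Wfikkn1 had an adjusted p of 0.185; embryos with the same number are not known to be paired, and the correlation of their deviations was 0.058. Calls over all probe sets were 260 with an intensity trend (cause not tested) and 439 without a fold threshold, by construction, which also gave 1 pathway gene (Bambi). Transition genes had 2 calls, Hoxc10 joining Pou5f1, among brighter probe sets, with repeated quantile normalisation, median centring, an intensity trend or the mean of probe sets; the cause was not tested. Wfikkn1 stayed called in 7 of 12 alternatives and below 0 in all 12, from -1.78 to -1.33 (adjusted p 0.0105 to 0.291). Every member gene kept its direction in its 12 alternatives except Smad3. Smad3 ran from -0.15 without wt replicate 1 to 0.031 without wt replicate 2, and Gdf11 came down to 5.8e-05 without wt replicate 2. A replicate block, an intensity trend, robust eBayes and only brighter probe sets leave each difference unchanged by construction, so they cannot reverse it. For genes with 1 probe set, Wfikkn1 among them, the mean and lowest-p settings use that same probe set. The counts out of 12 include these settings. Low signal limits what the dim probe sets can show.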
